A study of Mus musculus with 75 samples.

Results

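Among mice that carried the C26 tumour and received a chemotherapy drug, the level of the acute-phase transcript Serpina3n in muscle varied between animals of 1 treatment group. The libraries of these animals were divided by that level. The libraries were chosen by this measured value alone. Within each of 6 groups of sex and drug, those above the group median of log2 Serpina3n were called high and those at or below it low. This gave 21 high and 22 low libraries, 43 in all, of the 74 with values in the table. High libraries were then compared with low libraries of the same group, gene by gene, for every gene except Serpina3n. The split is a measured level and not a treatment, so each difference below is an association within treatment groups.

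RNA of the gastrocnemius, which in mice is a largely fast calf muscle, was sequenced from BALB/c mice of both sexes. All 43 treated mice had been injected on both sides with C26 cells, which come from a colon carcinoma of the mouse and cause cachexia. From day 12 they received 5-fluorouracil (4 high and 4 low libraries in each sex), paclitaxel (3 high and 4 low in females, 3 and 3 in males) or cisplatin (3 and 3 in females, 4 and 4 in males), at 75% of the maximum tolerated dose, in 2 cycles of 2 injections a week. The muscle was taken at day 25. The untreated tumour hosts (7 females, 8 males) carried C26 tumours and received saline, and the PBS mice (7 females, 8 males) received phosphate-buffered saline in place of tumour cells, and saline.

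The acute-phase response is the change in secreted proteins that follows inflammation. Cytokines of the interleukin-6 family signal through the receptor subunit gp130 and the transcription factor STAT3, and STAT3 induces its own feedback inhibitor Socs3. Liver is the main source of acute-phase proteins in blood, and muscle of tumour-bearing mice transcribes several of the same genes. Serpina3n encodes a secreted inhibitor of serine proteases.

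Serpina3n, the gene that set the split, lay at 4.62 ± 0.95 (log2 expression, mean ± SD, n = 21) in high libraries and at 3.29 ± 0.82 (n = 22) in low libraries. These values chose the libraries and were not tested. The difference of the group means was 0.82 in female cisplatin, 1.07 in male cisplatin, 1.32 in male paclitaxel, 1.57 in female 5-fluorouracil, 1.62 in female paclitaxel and 1.75 in male 5-fluorouracil. At the edge of the split, the lowest high and the highest low library were at 3.20 and 3.16 in female cisplatin and at 3.47 and 3.37 in male cisplatin. The same edge was wider in the other groups, from 0.59 in male paclitaxel to 0.97 in male 5-fluorouracil. Untreated tumour hosts averaged 5.66 ± 0.72 in females (n = 7) and 6.32 ± 0.91 in males (n = 8), and PBS mice 1.62 ± 0.59 (n = 7) and 1.60 ± 0.62 (n = 8). High libraries thus ran from 3.20 to 6.65 and low libraries from 1.87 to 4.93. The highest PBS library of either sex was at 2.57, below all high and most low libraries.

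**Figure D1:**
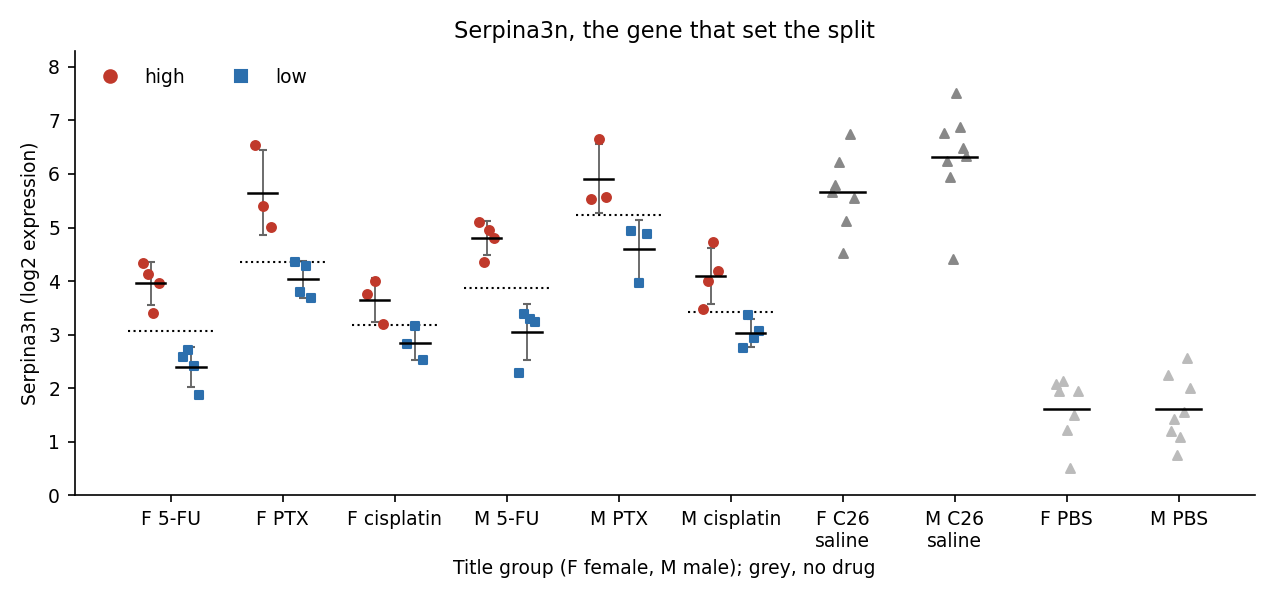
Log2 expression of Serpina3n in each library by treatment group (F, female; M, male; 5-FU, 5-fluorouracil; PTX, paclitaxel), with high libraries left of low libraries, group medians dotted, short black bars for means, grey error bars for the SD and grey triangles for mice without a drug. High and low libraries nearly meet in both cisplatin groups, at 3.20 and 3.16 in females and at 3.47 and 3.37 in males.

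The libraries also differed in technical measures, which are given here because they moved with the split in males. The GC slope measures how far, in a given library, GC-rich transcripts stand above their mean over libraries and GC-poor ones below it. It averaged 0.24 ± 0.24 (SD) in 11 high male libraries and -0.02 ± 0.24 in 11 low male libraries, and -0.06 ± 0.16 in 10 high female libraries and -0.01 ± 0.24 in 11 low female libraries. Over all groups the high-low difference was 0.12 (permutation p = 0.0874, two-sided), and it was larger by 0.29 in males than in females (permutation p = 0.0309). Mitochondrially encoded genes took 5.03 ± 4.59% of expression in high male libraries and 10.0 ± 4.37% in low male libraries, against 9.01 ± 3.08% and 8.47 ± 4.08% in females (sex difference -5.22 percentage points, permutation p = 0.0412). Over all groups the high-low difference of this share was -2.48 percentage points (permutation p = 0.0518). In female 5-fluorouracil the GC slope averaged -0.12 in high and 0.08 in low libraries, and the mitochondrial share 10.33% and 6.60%. Library size was 13.9 to 34.2 M estimated counts in high libraries and 15.3 to 32.0 M in low libraries (permutation p = 0.408). The part of the GC slope and of the mitochondrial share in the results below was not tested beyond the fits named with them. All 10 defining skeletal muscle genes were measured. Their summed level, back-transformed from log2 to CPM, was 115097 to 250156 CPM in high libraries and 128413 to 289954 CPM in low libraries, and none of the 10 was called, with a median difference of -0.20. Of these 10, 5 were called lower with the GC slope in the fit, and among males alone 2. Over all 13855 genes these fits called 717 and 1058 lower.

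**Figure D2:**
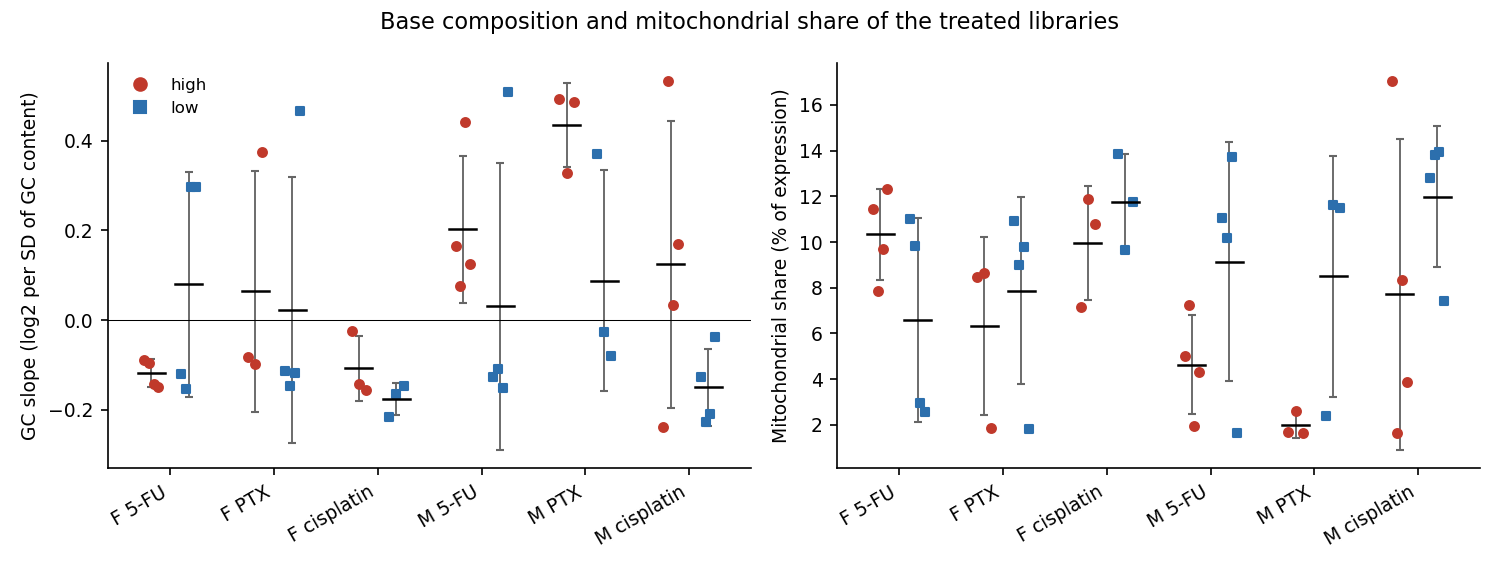
GC slope (left, log2 change for each SD of transcript GC content) and mitochondrial share of expression (right, percent) of each treated library by group, with high libraries left of low libraries, black bars for means and grey error bars for the SD. The 3 high libraries of male paclitaxel averaged a GC slope of 0.44 and a mitochondrial share of 1.98%, against 0.09 and 8.49% in the 3 low ones.

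Of 13855 genes, limma called 431 at an adjusted p under 0.05, which is 3.11% of those tested. Of these, 236 (1.7%) were higher and 195 (1.41%) were lower in high libraries, and the median difference of all genes was -0.01. The higher genes moved more, with a median difference of 0.52 against -0.28 for the lower ones. Of the 236 higher genes, 178 had a higher mean in high libraries in all 6 groups, against 4.08% of all genes. Of the 195 lower genes, 96 had a lower mean in all 6 groups, against 3% of all genes. These counts come from the contrast that called the genes and are a description.

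The number of calls rested on few libraries. With the GC slope in the fit it was 1153, or 8.32% (436 or 3.15% higher and 717 or 5.18% lower), and it was 296 (222 higher and 74 lower) with quantile normalization. It was 16 (15 higher and 1 lower) in the 29 libraries left, 12 high and 17 low, when the 14 libraries with a GC slope over 0.1 were left out. Those left out held all 3 high libraries of male paclitaxel, 3 of 4 of male 5-fluorouracil and 2 of 4 of male cisplatin. Male paclitaxel thus gave no contrast in this smaller set, whose high libraries were mostly female. Without male 5-fluorouracil replicates 1, 2, 3 and 7 it was 272, 272, 260 and 259, without male paclitaxel replicate 5 it was 274, and without female cisplatin replicate 2 it was 285. It was 734 without male 5-fluorouracil replicate 4, 699 without male cisplatin replicate 1, 696 without female 5-fluorouracil replicate 7 and 648 without female paclitaxel replicate 6. Of the 71 called genes that the naming rule picked, 51 stayed called whichever library was left out, and all 71 kept their direction without the 14 libraries of high GC slope. The genes were picked from the same libraries, so these counts are a description and not an independent check. A slope on log2 Serpina3n in place of the split called 710 genes (5.12%), 440 (3.18%) positive and 270 (1.95%) negative. Lbp, C4b, Stat3 and Tgfbr2 also stayed called in the set without the 14 libraries.

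Lbp (ENSMUSG00000016024), which encodes the acute-phase protein that hands bacterial lipopolysaccharide to CD14, had the smallest p of all genes. In the 3 high libraries of male paclitaxel it was at 5.10, 5.32 and 5.68 (log2 expression), and in the 3 low ones at 4.05, 4.22 and 4.76. In male 5-fluorouracil the 4 high libraries lay at 4.47, 4.51, 4.53 and 4.72, and the 4 low ones at 2.49, 3.14, 3.23 and 3.36. In male cisplatin the 4 high libraries lay at 3.57, 3.62, 4.04 and 4.71, and the 4 low ones at 3.34, 3.37, 3.44 and 3.53. High and low libraries did not overlap in these male groups. In females the high paclitaxel libraries lay at 4.73, 5.00 and 6.32, and the low ones at 3.70, 3.97, 4.32 and 4.52. The high 5-fluorouracil libraries lay at 3.58, 3.88, 4.20 and 4.34, and the low ones at 2.62, 2.81, 2.97 and 3.13. The high cisplatin libraries lay at 3.07, 3.84 and 4.04, and the low ones at 2.91, 3.13 and 3.23. Female cisplatin was the group where the ranges overlapped, through the high library at 3.07. Lbp was higher in high libraries by 1.01 ± 0.12 (log2, ± SE), a 2.01-fold difference, with a limma adjusted p of 3.87e-06. In the smaller set without high GC slopes it differed by 1.00 (adjusted p = 0.0127). High libraries lay above low ones without overlap in at least 3 of the 6 groups for 0.39% of all genes.

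Of the 18 measured acute-phase genes outside the Serpina3 cluster, 6 were called higher and 0 lower, where 1.7% and 1.41% of all genes were called in these directions. The median difference of the list was 0.60. Hp, haptoglobin, which binds free haemoglobin, ranged from 1.21 to 6.64 (median 4.23) in high libraries and from -0.37 to 4.90 (median 3.44) in low libraries, and was higher by 1.34 ± 0.26 (limma adjusted p = 0.00296). Itih3, a heavy chain of the inter-alpha-trypsin inhibitor, was higher by 1.39 ± 0.25 (adjusted p = 0.00108), from low levels of -3.04 to 0.61 in high libraries and -5.22 to -0.77 in low libraries. The ranges of both genes overlapped over all libraries, and their means were higher in high libraries in all 6 groups. Serping1, the C1 inhibitor, was higher by 0.54 ± 0.09 (adjusted p = 0.000446). The other called members were the complement genes C3 and Cfb, described below.

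Other acute-phase genes did not pass. Lcn2, which binds bacterial siderophores, differed by 0.73 ± 0.30 (adjusted p = 0.171), with a range from 0.31 to 6.03 in high libraries and -0.16 to 5.13 in low libraries. Saa1 and Saa3, serum amyloid A proteins, differed by 0.98 ± 0.46 and 1.07 ± 0.48 (adjusted p = 0.22 and 0.20), with 95% intervals from 0.05 to 1.90 and from 0.09 to 2.04. Ptx3, a pentraxin, was the member with a negative difference, at -0.21 ± 0.15. Serpina3m, a neighbour and near copy of the splitting gene, was higher by 1.99 ± 0.29. The authors' counting can divide reads between these copies, so it is not independent of the split.

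In the interleukin-6 pathway the transducer was called higher, and the receptors of the interleukin-6 family did not pass. Stat3 itself ranged from 5.98 to 8.02 (median 6.80) in high libraries and from 5.95 to 7.32 (median 6.25) in low libraries, and was higher by 0.48 ± 0.10 (limma adjusted p = 0.00755). Female 5-fluorouracil was the group with a negative difference, at -0.06. Socs3, the feedback inhibitor, ranged from 0.67 to 4.54 (median 2.87) in high libraries and from 0.73 to 4.18 (median 2.07) in low libraries. Its difference was 0.91 ± 0.22 (adjusted p = 0.0182), positive in all 6 groups. Il4ra, the interleukin-4 receptor chain, was higher by 0.44 ± 0.12 (adjusted p = 0.0295), a call that became 0.0512 without male 5-fluorouracil replicate 1. The receptors Il6ra, Osmr and Il6st (gp130) differed by 0.36 ± 0.22, 0.23 ± 0.14 and 0.11 ± 0.07, with 95% intervals from -0.09 to 0.80, -0.06 to 0.51 and -0.03 to 0.24. Osmr, the oncostatin M receptor, was called at 0.42 (adjusted p = 0.00223) with the GC slope in the fit and at 0.44 (adjusted p = 0.00685) with the mitochondrial share in it. The kinases Jak1 and Jak2 lay at -0.22 ± 0.07 and -0.41 ± 0.12 (adjusted p = 0.084 and 0.051). Cebpd, a transcription factor of acute-phase genes, differed by 0.72 ± 0.28 (adjusted p = 0.133). In all, 3 of 27 measured members were called higher and 0 lower, against 1.7% and 1.41% of all genes, with a median of 0.20. With the GC slope in the fit 5 were called higher and 2 lower, with a median of 0.10. Among males alone 4 were called higher and 3 lower. Over all 13855 genes these 2 fits called 436 and 583 higher, and 717 and 1058 lower.

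Mt2, a metallothionein that binds zinc, ranged from 2.68 to 9.05 (median 5.83) in high libraries and from 1.97 to 7.86 (median 4.66) in low libraries. It was higher by 1.36 ± 0.34 (limma adjusted p = 0.0196), positive in all 6 groups. Its neighbour Mt1 differed by 0.92 ± 0.30 (adjusted p = 0.0776), and reads that fit both copies make the split between them uncertain. Without the libraries of high GC slope Mt2 was at 0.94 (adjusted p = 0.278) and Socs3 at 1.14 (adjusted p = 0.118). Among 20 metallothioneins and zinc transporters, Mt2 was the 1 gene called, and the list median was 0.04. Over all genes 3.11% were called, so this count says little about the list.

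**Figure D3:**
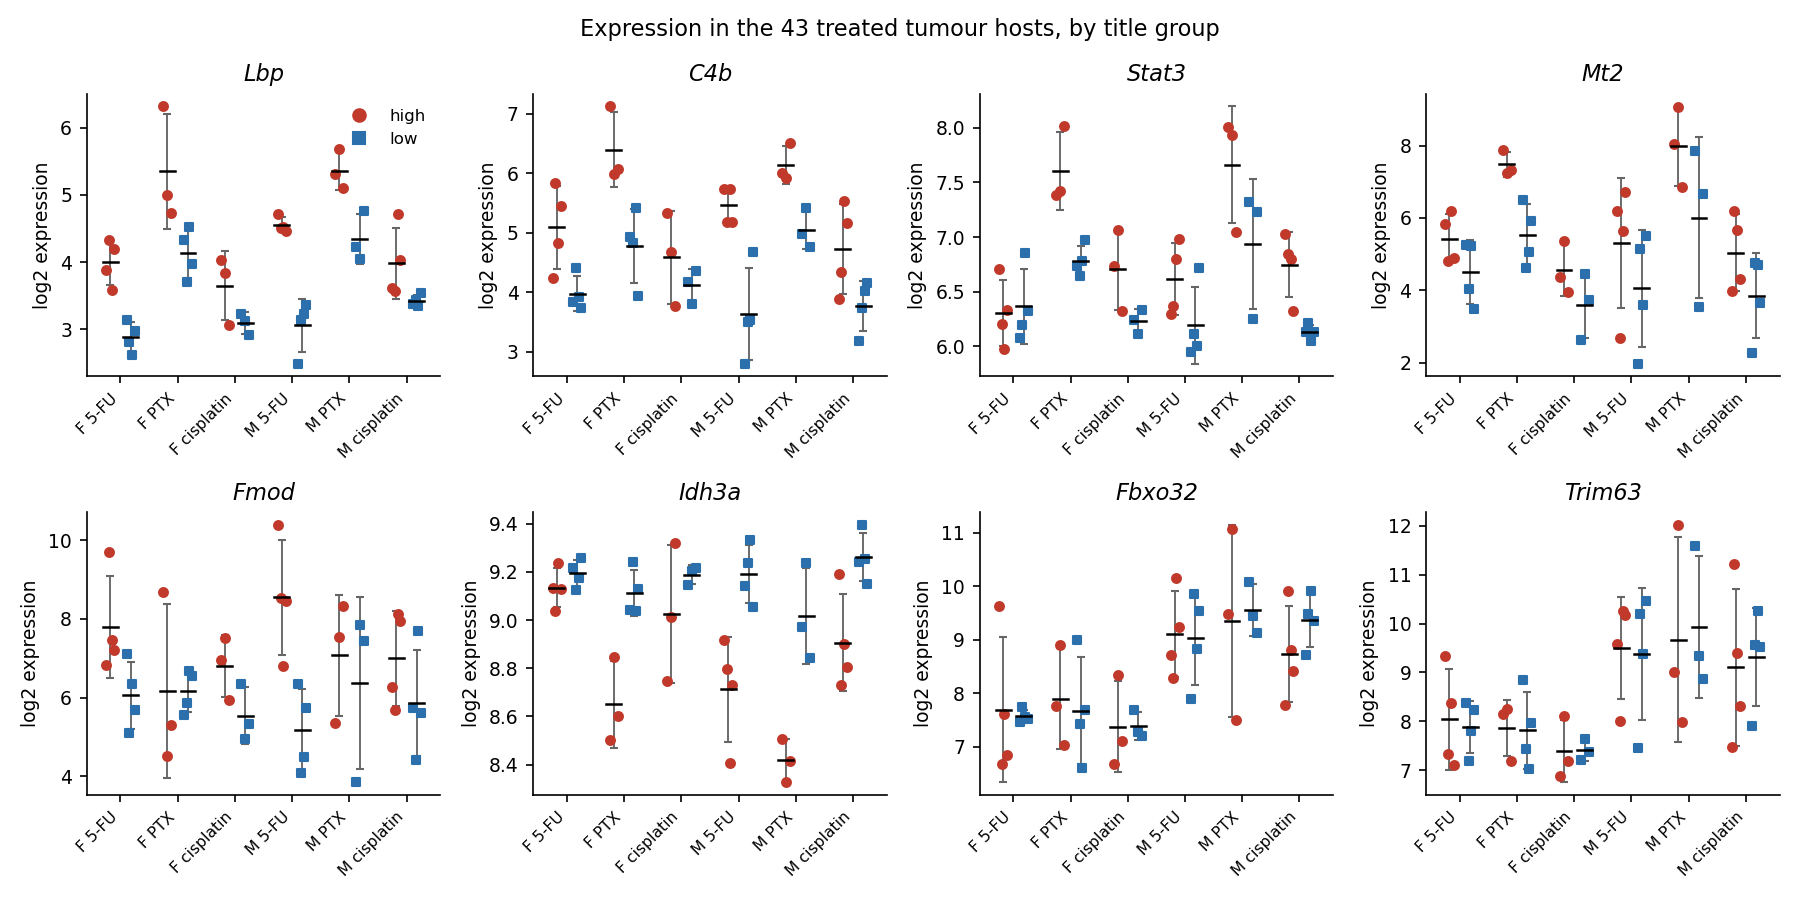
Log2 expression of 8 genes in each of the 43 treated libraries by group, with high libraries left of low libraries, black bars for means and grey error bars for the SD. Lbp separates high from low in 5 of 6 groups, while the ligases Fbxo32 and Trim63 overlap in all of them.

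The promoters of Socs3 and Mt2 are shown because they are the genes among those fixed for their roles that were called higher and held the motif looked for. The windows run from 250 bases before to 50 after the start site, from RefSeq with build GRCm38.p6, which is older than the build of the expression table. Socs3 lies on the minus strand at chr11:117969317-117969616, and capitals mark its 1 match to TTCNNNGAA, the STAT motif. Mt2 lies on the plus strand at chr8:94172368-94172667, and capitals mark its 4 matches, on either strand, to TGCACNC or TGCGCNC, the core of the metal response motif.
Socs3: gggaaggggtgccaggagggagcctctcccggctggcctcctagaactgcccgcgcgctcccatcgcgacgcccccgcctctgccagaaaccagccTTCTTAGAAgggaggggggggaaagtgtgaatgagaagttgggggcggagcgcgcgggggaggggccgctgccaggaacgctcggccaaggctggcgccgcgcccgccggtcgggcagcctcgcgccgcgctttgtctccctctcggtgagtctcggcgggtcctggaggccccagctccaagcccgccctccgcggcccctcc
Mt2: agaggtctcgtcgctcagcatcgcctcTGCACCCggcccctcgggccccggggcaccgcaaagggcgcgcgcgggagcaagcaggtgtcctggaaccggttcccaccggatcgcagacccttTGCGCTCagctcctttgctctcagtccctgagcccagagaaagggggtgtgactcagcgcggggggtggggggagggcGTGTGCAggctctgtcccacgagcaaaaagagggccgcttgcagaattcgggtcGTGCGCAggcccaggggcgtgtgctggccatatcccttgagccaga
The promoter table matched 166 of the 236 genes called higher, 156 of the 195 called lower and 10432 of 13831 gene symbols tested. A match on either strand to the STAT motif stood in 12.0% of the promoters of higher genes, 10.3% of those of lower genes and 8.3% of all. The C/EBP motif TTGCNNAA stood in 9.6%, 10.3% and 10.0%, the metal response motif in 36.7%, 48.1% and 40.3%, and the E-box CACGTG in 6.0%, 7.1% and 11.6%. The glucocorticoid receptor motif, GNACA and TGTNC 3 bases apart, stood in 0 of the 166 higher and 0 of the 156 lower genes and in 0.4% of all. These shares are a description of these windows, and none was tested.

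Complement genes, a list chosen after their values had been seen, were higher in high libraries at several steps of the cascade. Of 26 measured, 10 were called higher and 0 lower, against 1.7% and 1.41% of all genes, with a median of 0.44. C4b, a component of the classical pathway, ranged from 3.76 to 7.12 (median 5.44) in high libraries and from 2.80 to 5.41 (median 4.08) in low libraries, and was higher by 1.21 ± 0.17 (limma adjusted p = 3.75e-05). Its near copy C4a was not analysed here, and reads of the pair may have been counted together. C3, on which all activation pathways meet, was higher by 0.84 ± 0.14 (adjusted p = 0.000494), the protease gene C1ra by 0.59 ± 0.09 (adjusted p = 0.000239) and the alternative pathway gene Cfb by 0.74 ± 0.20 (adjusted p = 0.0273). C7, of the membrane attack complex, was higher by 0.97 ± 0.24 (adjusted p = 0.022). The membrane regulators Cd55, Cd59a and Cd46 lay at -0.25 ± 0.13, -0.19 ± 0.10 and -0.35 ± 0.20 and did not pass. C4b was the member of this list still called without the libraries of high GC slope, at 1.06 (adjusted p = 0.0484).

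Macrophage markers were called in part. Of 19 measured, 6 were higher and 0 lower, against 1.7% and 1.41% of all genes, with a median of 0.38. The C1q chains C1qa, C1qb and C1qc, which macrophages make, were higher by 0.53 ± 0.14, 0.57 ± 0.14 and 0.58 ± 0.14 (limma adjusted p = 0.0271, 0.0208 and 0.0205), and stand in the complement list too. With the GC slope in the fit 11 of the 19 were called higher, against 3.15% of all genes. Without the libraries of high GC slope 0 were, and 15 of all 13855 genes were. Tyrobp, a signalling adaptor of myeloid cells, ranged from -0.47 to 2.59 (median 1.67) in high libraries and from -0.43 to 1.90 (median 0.73) in low libraries, and was higher by 0.65 ± 0.16 (adjusted p = 0.02). The C1q chains were not higher in female 5-fluorouracil, where they lay at -0.31 to -0.21. In that group the mean GC slope was -0.12 in high and 0.08 in low libraries, and its part was not tested. The call of C1qa was lost, at adjusted p up to 0.0506, without male 5-fluorouracil replicate 7 or male paclitaxel replicate 5. The summed level of the list was 106 to 444 CPM (median 224) in high libraries and 128 to 292 CPM (median 191) in low libraries. In whole muscle, more cells of a type and more RNA per cell cannot be told apart.

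Neutrophil markers were not called: 0 of 10 measured, with 9 positive differences and a median of 0.29. With 3.11% of all genes called, 0 calls in so short a list do not show an absence. The median was 0.68 in females alone and -0.04 in males alone. A slope on log2 Serpina3n in treated hosts called 1 of the 10 higher. In untreated hosts all 10 slopes were positive, with a median of 0.73, and 0 were called. S100a8, a calgranulin of neutrophils, differed by 0.43 ± 0.49 (limma adjusted p = 0.624), and the summed level of the list was 1.10 to 34.9 CPM in high libraries and 0.87 to 22.3 in low libraries. Icam1, which binds leukocytes to endothelium, was the 1 called gene of 19 in the list of NF-kB targets and inflammation, at 0.42 ± 0.10 (adjusted p = 0.0182). Of the endothelial markers, 2 of 17 were higher, against 1.7% of all genes. Ackr1, the chemokine-binding receptor of venules, was higher by 0.56 ± 0.09 (adjusted p = 0.000207) in all 6 groups, and Vwf, which binds platelets, by 0.44 ± 0.10 (adjusted p = 0.0109). Of 40 interferon response genes 0 were called, with a median of -0.10. The T and NK cell markers were not analysed here.

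Ighm, the immunoglobulin mu chain, was the B cell gene that fell. It ranged from -0.33 to 5.01 (median 2.22) in high libraries and from 0.26 to 6.21 (median 3.73) in low libraries. Its difference was -1.29 ± 0.35 (limma adjusted p = 0.0333), with a lower mean in all 6 groups and no group without overlap. The call was lost when any 1 of 7 libraries was left out, at adjusted p up to 0.0615. Of the 9 measured B cell and MHC class II markers it was the 1 called, where 1.41% of all genes were called lower. Of these 9 differences 7 were positive, and the list median was 0.06.

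Matrix genes of tendon and fibrous sheaths were among the largest rises. This list too was chosen after the values had been seen. Of 19 measured, 7 were called higher and 0 lower, against 1.7% and 1.41% of all genes. All 19 differences were positive, and the median was 0.94. Comp, cartilage oligomeric matrix protein, ranged from 1.68 to 7.56 (median 4.53) in high libraries and from -1.12 to 4.56 (median 2.30) in low libraries, and was higher by 1.90 ± 0.44 (limma adjusted p = 0.014). Prg4, the lubricant proteoglycan lubricin, was higher by 1.74 ± 0.28 (adjusted p = 0.000373), and Thbs4, a thrombospondin of tendon, by 1.12 ± 0.26 (adjusted p = 0.0136). Fmod, the collagen-binding proteoglycan fibromodulin, was higher by 1.45 ± 0.39 (adjusted p = 0.0337), a call lost when any 1 of 10 libraries was left out, at adjusted p up to 0.0606.

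The matrix difference was uneven between groups. In male 5-fluorouracil, Comp differed by 3.90 and Fmod by 3.38, and in female paclitaxel by 0.15 and 0.00. The summed level of the list was 347 to 3821 CPM (median 710) in high libraries and 313 to 1043 CPM (median 420) in low libraries. The defining tendon genes Tnmd, tenomodulin, and Scx, the transcription factor scleraxis, differed by 0.84 ± 0.44 and 0.44 ± 0.20 (adjusted p = 0.26 and 0.20), with 95% intervals from -0.04 to 1.72 and from 0.04 to 0.84. How much tendon each piece of muscle held was not tested. Of the 19, 14 were called higher with the GC slope in the fit, against 3.15% of all genes. Without the libraries of high GC slope 0 were, with a median of 1.07, and 15 of all 13855 genes were.

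Collagens and matrix genes of muscle, a list with Tnc and Dcn in common with the last, had 7 of 26 called higher and 0 lower. Over all genes 1.7% were called higher and 1.41% lower. All 26 differences of the list were positive, with a median of 0.29. The crosslinking enzyme Lox was higher by 1.02 ± 0.21 (limma adjusted p = 0.0052), the gelatinase Mmp2 by 0.56 ± 0.12 (adjusted p = 0.0102) and Timp1, an inhibitor of metalloproteinases, by 1.31 ± 0.34 (adjusted p = 0.0246). The main fibrillar collagens Col1a1, Col1a2 and Col3a1 lay at 0.62 ± 0.28, 0.62 ± 0.26 and 0.22 ± 0.18 and did not pass. Tgfbr2, a receptor of TGF-beta, was higher by 0.35 ± 0.07 (adjusted p = 0.00355) in all 6 groups. It was the 1 called gene of 29 in the list of myostatin, activin and TGF-beta. Of 12 fibroblast markers 0 were called, with a median of 0.12.

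Erythroid transcripts were higher. Of 6 measured, 4 were called higher and 0 lower, against 1.7% and 1.41% of all genes, with a median of 0.99. Alas2, the haem synthesis enzyme of red cell precursors, ranged from 1.86 to 5.95 (median 4.23) in high libraries and from 0.64 to 5.13 (median 3.19) in low libraries, and was higher by 1.04 ± 0.26 (limma adjusted p = 0.0196). The globin genes Hba-a1, Hba-a2 and Hbb-bt were higher by 1.07 ± 0.27, 1.02 ± 0.25 and 0.97 ± 0.25, each positive in all 6 groups. They have near-identical copies that share reads. The summed level was 178 to 4577 CPM (median 952) in high libraries and 94.8 to 3113 CPM (median 501) in low libraries. The amount of blood in the tissue was not tested. Without the libraries of high GC slope 0 of the 6 were called, with a median of 1.15, and 16 of all 13855 genes were.

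**Figure D4:**
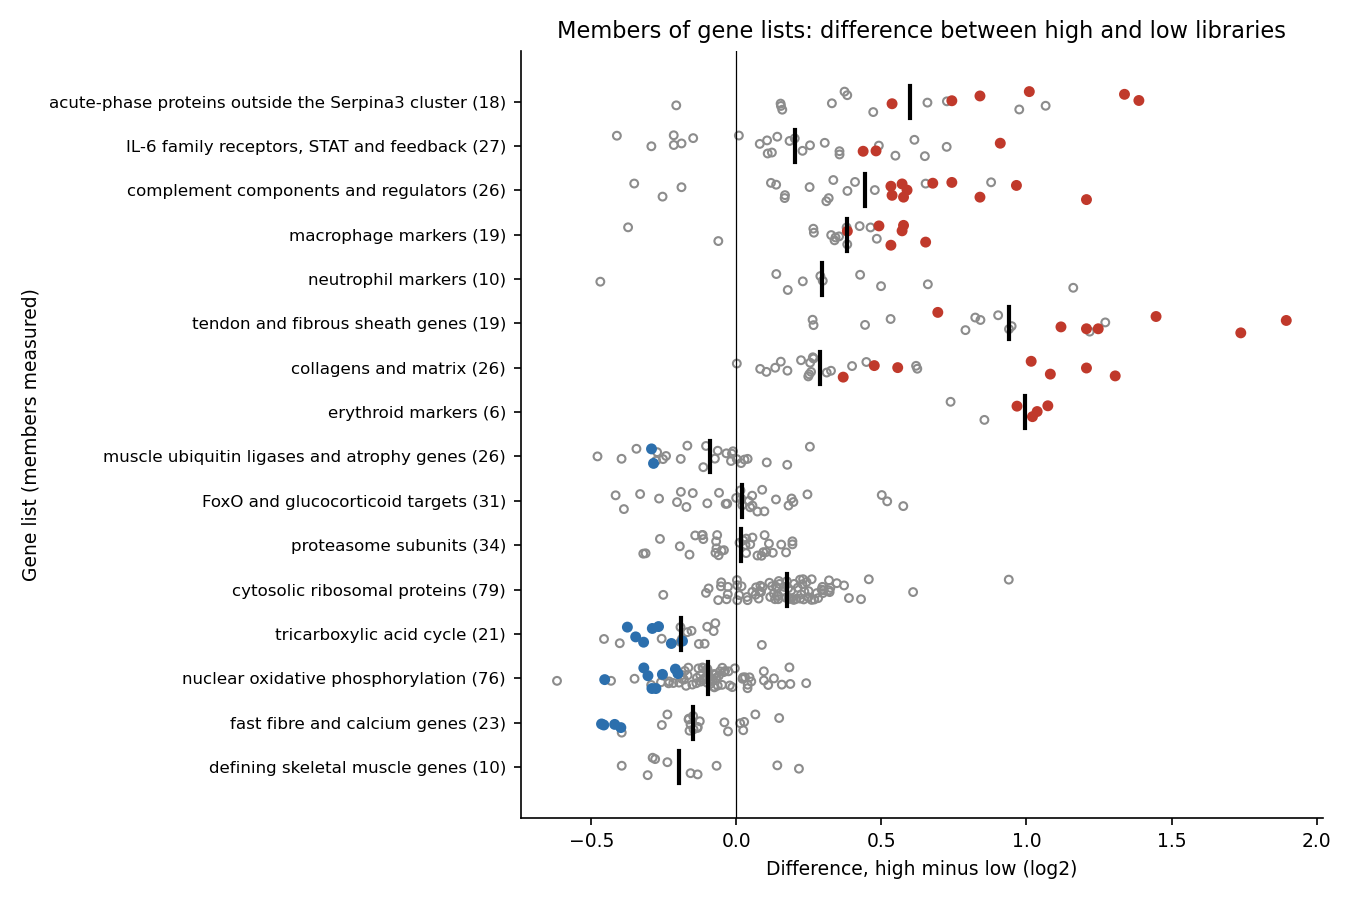
Difference between high and low libraries (log2) of each measured member of 16 gene lists, 1 point a gene, filled red where called higher, filled blue where called lower and open where not called, with a black bar for the list median. Medians run from 0.99 for erythroid and 0.94 for tendon genes to -0.20 for defining skeletal muscle genes, while FoxO targets and proteasome subunits centre on 0.02.

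Genes of the tricarboxylic acid cycle and of pyruvate entry were lower. Of 21 measured, 0 were called higher and 7 lower, with a median of -0.19. Over all genes 1.7% were called higher and 1.41% lower, with a median of -0.01. Idh3a, the catalytic subunit of the NAD-dependent isocitrate dehydrogenase, ranged from 8.33 to 9.32 (median 8.81) in high libraries and from 8.84 to 9.40 (median 9.19) in low libraries. Its difference was -0.35 ± 0.06 (limma adjusted p = 0.000378). Its mean was lower in high libraries in all 6 groups, against 3% of all genes. Dlat, Pdhx, Pdha1 and Pdhb, of the pyruvate dehydrogenase complex, lay at -0.38 ± 0.08, -0.27 ± 0.05, -0.29 ± 0.08 and -0.32 ± 0.09, and all passed. Mpc1, of the pyruvate carrier into mitochondria, lay at -0.19 ± 0.05 (adjusted p = 0.0257). Of the 21, 17 were called lower with the GC slope in the fit, and with the mitochondrial share in it 12. Over all 13855 genes these fits called 717 and 393 lower. With quantile normalization 3 of the 21 were called lower, and 74 of all genes. Without the libraries of high GC slope 0 of the 21 were, with Idh3a at -0.23 (adjusted p = 0.140), and 1 of all genes.

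Of 76 nuclear genes of oxidative phosphorylation, 0 were called higher and 8 lower, against 1.7% and 1.41% of all genes, with a median of -0.10. Ndufs4, Ndufb5 and Ndufs1, subunits of complex I, lay at -0.25 ± 0.06, -0.28 ± 0.07 and -0.45 ± 0.12, and Atp5pf and Atp5pd, of the ATP synthase, at -0.29 ± 0.07 and -0.30 ± 0.08. With quantile normalization 0 of the 76 were called, with a median of -0.05. The count was 36 lower with the GC slope in the fit, with a median of -0.20, and with the mitochondrial share in it 20. Over all 13855 genes these fits called 717 and 393 lower. Of the 13 mitochondrially encoded genes mt-Atp6, which overlaps mt-Atp8, was called, at -1.05 ± 0.30 (limma adjusted p = 0.0422). That call was lost when any 1 of 24 libraries was left out. All 13 differences were negative, with a median of -0.63. The median was -1.28 in males alone, 0.06 in females alone and -0.18 with the GC slope in the fit, and the mitochondrial share was lower in high than in low male libraries. Fatty acid uptake and oxidation had 0 of 31 called and a median of -0.17. In glycolysis and glycogen 3 of 28 were lower, among them Pfkfb1, which sets the level of fructose 2,6-bisphosphate, at -0.45 ± 0.09 (adjusted p = 0.00285).

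Genes of fast fibres and calcium release were called lower in 4 of 23 cases and higher in 0, with a median of -0.15. Over all genes 1.41% were called lower and 1.7% higher. Myl1, the fast alkali light chain of myosin, ranged from 11.59 to 12.92 (median 12.32) in high libraries and from 12.13 to 13.34 (median 12.74) in low libraries, and its difference was -0.46 ± 0.09 (limma adjusted p = 0.00296). Pvalb, the calcium buffer parvalbumin, lay at -0.40 ± 0.10 (adjusted p = 0.026). Casq1, the calcium store protein, lay at -0.42 ± 0.12 (adjusted p = 0.0367), and Myoz3, a Z-disc protein of fast fibres, at -0.46 ± 0.12 (adjusted p = 0.0257). All 4 had lower means in high libraries in all 6 groups. The count was 11 of 23 with the GC slope in the fit, and with the mitochondrial share in it 9. Over all 13855 genes these fits called 717 and 393 lower. None of the 23 was called with quantile normalization, and Casq1 was not called when any 1 of 10 libraries was left out, at adjusted p up to 0.0665. Of 13 slow fibre genes 0 were called, with a median of -0.02.

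Amd1, the decarboxylase that feeds polyamine synthesis, ranged from 5.52 to 9.43 (median 7.14) in high libraries and from 6.00 to 10.22 (median 7.52) in low libraries. It lay at -0.82 ± 0.23 (limma adjusted p = 0.0384), and its near copy Amd2 at -1.27 ± 0.37 (adjusted p = 0.0495). The difference of Amd1 was -1.18 in male 5-fluorouracil, -1.69 in male paclitaxel and -1.53 in male cisplatin, against 0.19, -0.64 and -0.07 in the same groups of females. With the GC slope in the fit it was -0.75 in males alone (limma adjusted p = 0.236) and -0.24 in females alone (adjusted p = 0.466). The contrast of the sexes with equal weights called 0 genes. The call of Amd1 was lost when any 1 of 18 libraries was left out, with quantile normalization and with the mitochondrial share as a covariate. Other large falls were Sh3kbp1, an adaptor of receptor endocytosis, at -0.95 ± 0.17 (adjusted p = 0.00108), Actc1, cardiac actin, at -0.85 ± 0.22 (adjusted p = 0.0239) and Frzb, a secreted inhibitor of Wnt signalling, at -0.80 ± 0.19 (adjusted p = 0.0134).

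The best known ligases of muscle atrophy were not called with the split. Fbxo32 (atrogin-1), a muscle ubiquitin ligase, ranged from 6.68 to 11.08 (median 8.34) in high libraries and from 6.60 to 10.09 (median 8.299) in low libraries. Its difference was -0.07 ± 0.25 (limma adjusted p = 0.885), with a 95% interval from -0.58 to 0.44, or 0.67 to 1.35 fold. Trim63 (MuRF1), the other classic ligase, ranged from 6.89 to 12.02 (median 8.24) in high libraries and from 7.02 to 11.59 (median 8.295) in low libraries. Its difference was -0.02 ± 0.31 (adjusted p = 0.978), with an interval from -0.64 to 0.60. High and low libraries overlapped in all 6 groups for both genes. High libraries lay above low ones without overlap in at least 3 of the 6 groups for only 0.39% of all genes. The 95% intervals give differences compatible with these libraries and are not a limit of detection.

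Among 26 muscle ubiquitin ligases and atrophy genes, 0 were called higher and 2 lower, against 1.7% and 1.41% of all genes, with a median of -0.09. These were Trim55 (MuRF2), at -0.29 ± 0.07 (limma adjusted p = 0.0102), and Fbxo40, a ligase that targets the insulin receptor substrate, at -0.29 ± 0.07 (adjusted p = 0.022). Of the 26, 4 were called lower with the GC slope in the fit, and among males alone 6. Over all 13855 genes these fits called 717 and 1058 lower. Neither Trim55 nor Fbxo40 was called with quantile normalization. Of 31 FoxO and glucocorticoid targets 0 were called, with a median of 0.02. The transcription factor Foxo1 differed by 0.04 ± 0.26, the cochaperone Fkbp5 by 0.07 ± 0.19 and the kinase Pdk4 by -0.15 ± 0.36, with 95% intervals from -0.49 to 0.57, -0.32 to 0.47 and -0.88 to 0.58. The cell cycle inhibitor Cdkn1a differed by 0.50 ± 0.29 (adjusted p = 0.307). Of 34 proteasome subunits 0 were called, with a median of 0.02, and of 35 autophagy and lysosome genes 0 were higher and 1 lower. Ribosomal proteins had 0 of 79 called, with 70 positive differences and a median of 0.17, which was 0.06 with the GC slope as a covariate. Nmrk2, the muscle nicotinamide riboside kinase, lay at -0.77 ± 0.26 (adjusted p = 0.0924) and passed at -0.91 (adjusted p = 0.025) once the GC slope was in the fit.

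The stress lists are set beside all genes, of which 1.7% were called higher and 1.41% lower. Of 23 ATF4 targets 2 were higher, the serine synthesis enzyme Phgdh and the amino acid transporter subunit Slc3a2. They lost the call when any 1 of 17 and of 18 libraries was left out, and with the mitochondrial share in the fit 0 were called higher. Of 23 antioxidant genes 2 were called higher and 1 lower. The extracellular superoxide dismutase Sod3 was higher by 0.77 ± 0.13 (limma adjusted p = 0.000373) and called whichever library was left out. G6pdx was higher by 0.39 (adjusted p = 0.0481), a call lost when any 1 of 31 libraries was left out, and the mitochondrial Sod2 lay at -0.24. Of 21 genes of the unfolded protein response and 14 of proliferation 0 were called, and of 23 in the p53 list Ccng1 was lower, at -0.41, a call lost when any 1 of 12 libraries was left out. Among lists of other cells of the muscle, 0 of 11 adipocyte markers were called, with 10 positive differences and a median of 0.44, and 0 of 9 satellite cell, 0 of 10 nerve and Schwann cell and 0 of 5 epithelial and carcinoma markers. The epithelial and carcinoma list summed to 16.5 to 46.4 CPM in high libraries and 18.8 to 41.6 CPM in low libraries.

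Whether the high-low difference differed between the sexes or drugs depended on the weighting of libraries. For males minus females limma called 0 genes (0% of those tested) with equal weights and 5940 with quality weights. With equal weights 2741 were at an unadjusted p under 0.05, and 544 once the GC slope was in the fit. Among females alone 0 genes were called (835 unadjusted), and among males alone 1641 (583 higher and 1058 lower). With the GC slope as a covariate these became 11 in females and 0 in males (2220 unadjusted). Lbp lay at 0.99 in females and 1.03 in males, a difference between sexes of 0.06 ± 0.23. The 5 smallest p of the sex contrast belonged to Gm3488, Mob3a, Gm3512, Paox and Rps27. The ribosomal protein gene Rps27 differed by 3.56 ± 0.88 and the polyamine oxidase Paox by -0.72 ± 0.17 (adjusted p = 0.239 each).

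For paclitaxel minus 5-fluorouracil, cisplatin minus 5-fluorouracil and cisplatin minus paclitaxel limma called 0 genes each, with 943, 631 and 209 unadjusted. With quality weights it called 1224, 0 and 0. The estimation of quality weights stopped short of its convergence tolerance in at least 1 fit, so counts with them are less certain. The 5 smallest p belonged to Vwa3b, Stk40, 9430038I01Rik, Lsm1 and Foxp2 in the first contrast and to Tcam1, Ap2a1, Gm20708, Ccl28 and Serpina1b in the next. In the last they belonged to Mapk4, Rasgef1a, Dmp1, Asb14 and Ift140. Tcam1 had the smallest adjusted p of the 15, at 0.31. Cisplatin minus 5-fluorouracil called 1 gene without female 5-fluorouracil replicate 5. Groups differed in their weight for the pooled count, which was 39 without male 5-fluorouracil, 94 without male paclitaxel, 122 without female paclitaxel, 219 without male cisplatin and 1672 without female 5-fluorouracil.

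The untreated tumour hosts did not enter the split. In their 15 libraries each gene was fitted with a slope on log2 Serpina3n, with sex as a block. limma called 58 genes (0.419%), 19 (0.137%) with a positive and 39 (0.281%) with a negative slope. Of these, 29 were also called in treated hosts, which is 50% of the 58 and 6.73% of the 431, and 0 of them went the opposite way. Of the 236 genes higher in high treated libraries, 228 had a positive slope in untreated hosts, against 52.3% of all genes. Of the 195 lower genes, 188 had a negative slope, against 47.7% of all genes. With the GC slope in the untreated fit 377 genes were called (2.72%), 82 (0.592%) positive and 295 (2.13%) negative, and these agreements were 228 and 190.

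Among the 29 shared genes, Lbp rose in untreated hosts by 0.54 ± 0.09 per log2 unit of Serpina3n (limma adjusted p = 0.031), Mt2 by 1.10 ± 0.21 (adjusted p = 0.0441) and Tgfbr2 by 0.33 ± 0.07 (adjusted p = 0.0488). Casq1 had a slope of -0.80 ± 0.14, Myoz3 of -0.89 ± 0.16, Amd1 of -0.66 ± 0.14 and Ighm of -1.35 ± 0.21, all called. Fetub, a fetuin, and Apod, a lipocalin that carries lipids, were higher in high treated libraries by 1.38 ± 0.32 and 0.97 ± 0.17, and had slopes of 0.79 ± 0.15 and 0.68 ± 0.12 in untreated hosts. They were named after their values had been seen. No tendon or erythroid gene had a called slope in untreated hosts, where Prg4 was at 0.91 ± 0.20 (adjusted p = 0.0528), Comp at 0.27 ± 0.50, Fmod at 0.31 ± 0.45 and Hba-a1 at 0.14 ± 0.15. That their association differs between treated and untreated hosts was not tested.

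The 5 genes with the smallest p in untreated hosts were the chitinase-like Chi3l1 (slope 1.16 ± 0.15, limma adjusted p = 0.00696), Ighm, the chemokine Ccl6 (0.67 ± 0.11), the interferon-induced Ifit3b (-0.82 ± 0.13) and the membrane protein Tmem176b (0.43 ± 0.07). In treated hosts Tmem176b was higher in high libraries by 0.59 ± 0.10 (adjusted p = 0.000341), while Chi3l1 differed by 0.55 ± 0.41, Ccl6 by 0.31 ± 0.18 and Ifit3b by 0.03 ± 0.19 without a call. Lcn2 had a slope of 1.53 ± 0.33 (adjusted p = 0.053) in untreated hosts. Fbxo32 and Trim63 had slopes of 0.39 ± 0.26 and 0.28 ± 0.26 (adjusted p = 0.54 and 0.68). The count of 58 depended on single libraries. Without male saline replicates 1, 2, 4, 5, 6 and 7 it was 19, 20, 0, 2, 23 and 90, and without female saline replicates 1, 3, 4, 5, 6 and 7 it was 37, 31, 157, 23, 5 and 222. In the 15 PBS libraries, where Serpina3n ran from 0.52 to 2.57, the slope was called for 1 gene (0.00722%), with 4949 unadjusted, and with the GC slope as a covariate for 0, with 698 unadjusted.

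**Figure D5:**
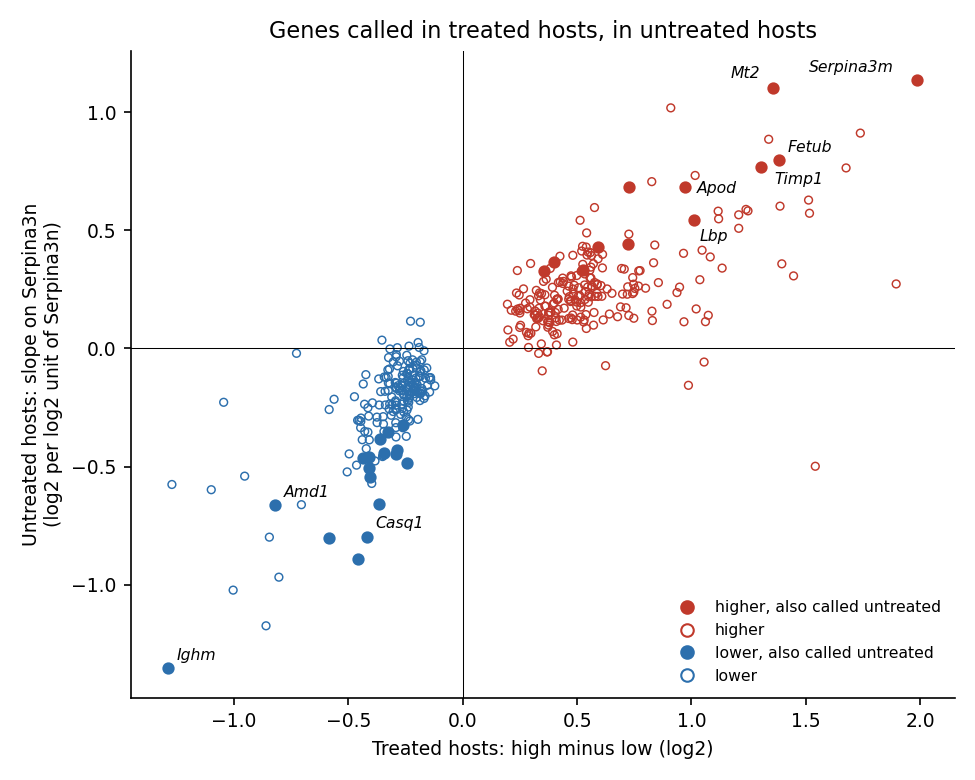
The 431 genes called in treated hosts, with the difference between high and low libraries on the x axis (log2) and the slope on log2 Serpina3n in the 15 untreated tumour hosts on the y axis (log2 per log2 unit). Red genes were higher and blue genes lower in high treated libraries, filled points are the 29 also called in untreated hosts, and 228 of 236 red and 188 of 195 blue genes keep their sign.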

How the data were processed

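The table the authors deposited holds log2 expression. Per the submitters' processing notes the tools were Salmon, limma, edgeR, fastp, FastQC and MultiQC and the build was mm39 (GRCm39); neither versions nor the part each tool played is given in the sources used here. Low deposited log2 values fit an estimated count, with 0.5 added, over a library size. Solving for that size gave 13.9 to 34.2 M estimated counts in treated libraries (median 22.5), with 85.03 to 90.05% of the values within 0.02 of a whole number. Since these are estimates, no count test was run. Titles gave the groups of 73 libraries, and 1 library whose title and drug label conflict was left out. Of 75 labelled samples, female PBS replicate 8 was not analysed here. The labels do not tie libraries to cages or days, so p values speak only of variation among the libraries at hand. The most similar pair in any group had a chi-square averaging 18.9 over genes, so no library was counted as a duplicate.

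limma 3.58.1 in R 4.3.3 (lmFit, eBayes with a trend) fitted high against low with group as a block (36 residual degrees of freedom), two-sided, with Benjamini-Hochberg adjustment over 13855 genes. Differences are high minus low in log2, ± SE. Interactions, a slope on Serpina3n and 100000 permutations of library measures within groups used the same libraries. Summed levels are sums of values back-transformed from log2 to CPM. GC content came from GENCODE vM21 (GRCm38) for 13791 genes (99.5%), and the GC slope used 10637 genes whose mean was 1 or more. Of 311 blank symbols 288 were filled by gene ID. Fits were tested on simulated data first. Named genes were the 12 largest rises and falls among called genes with a mean of at least 1 and no predicted symbol, up to 4 called members of a list, 20 genes fixed for their roles, and the 5 smallest p elsewhere. Genes named outside this rule were members of the lists, or are marked. The members, the lists and the rule were chosen with earlier results of these data known. Alternatives were other normalization, weights, covariates, pseudocount, filters, splits, subsets and leaving out libraries.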

Additional observations from a re-analysis of the deposited data

Results flagged for a closer look

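Of 144 sets of values, 24 measures in 6 groups, 5 held a library that stood apart by Dixon's criterion, which chance reaches in about 1 group in 20. Pdk4 was at 8.55 in the high library of female cisplatin replicate 2, against 10.16 to 10.75 in the others. Fbxo32 was at 9.64 in the high library of female 5-fluorouracil replicate 1, against 6.68 to 7.74. Ighm was at -0.333 in the high library of female paclitaxel replicate 3, against 1.07 to 1.74. Pvalb was at 11.7 in the high library of male 5-fluorouracil replicate 7, against 12.40 to 12.79. S100a8 was at -4.98 in the low library of male cisplatin replicate 5, against -1.36 to 0.59.

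The high-low difference of 2 library measures differed between the sexes by permutation. For the GC slope the male difference exceeded the female one by 0.294 (permutation p = 0.0309), and for the mitochondrial share it was lower by 5.22 percentage points (-5.22, permutation p = 0.0412).

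In the female library with conflicting labels, which entered no comparison, Serpina3n was at 4.62, above the PBS maximum of 2.57. In it Lbp was at 4.42, Stat3 at 7.35 and Mt2 at 5.64.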

How the results depend on the processing

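Against 431 called genes, the count was 2186 with quality weights, 1153 with the GC slope, 671 with the mitochondrial share and 1065 with both as covariates (the last chosen after seeing the data). It was 710 for a slope on Serpina3n in place of the split, 1308 for a split at the group mean, 275 without the libraries nearest the median and 752 with all libraries in 1 fit. Without a group it was 1672 (female 5-fluorouracil), 122 (female paclitaxel), 39 (male 5-fluorouracil), 219 (male cisplatin) or 94 (male paclitaxel). It was 0 in females, 1641 in males, 12 for 5-fluorouracil, 0 for paclitaxel and 0 for cisplatin alone, sets with fewer samples. With the GC slope as covariate it was 11 in females and 0 in males, and 16 without the libraries of GC slope over 0.1, 3 alternatives chosen after seeing the data. Leaving out 1 library gave 259 to 734. Quantile normalization gave 296, a mean log2 value of at least 1 430, a pseudocount of 1 454 and no trend 413.

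The sex difference called 5940 genes with quality weights, 1 without the libraries of high GC slope and 0 without any 1 library. Paclitaxel minus 5-fluorouracil called 1224 with weights and 1 without those libraries. Cisplatin minus 5-fluorouracil called 1 without them and 0 to 1 without any 1 library. In untreated hosts the count of 58 was 26 with quantile normalization, 611 with weights, 377 with the GC slope, 222 without those libraries and 0 to 222 without any 1 library. Of 4968 recomputed values of the 71 named genes that were called, 3896 kept direction and call, 1071 kept the direction and lost the call, and 1 changed sign: G6pdx, at -0.0145 with cisplatin alone. All these fits share libraries with the fit that called the genes. Of 2509 values of the 36 named genes that were not called, Fbxo32 and Trim63 among them, 43 gained a call and 174, over 30 genes, changed sign without one. Except where the construction shows it (fewer samples), the cause was not tested.

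Replicate numbers did not pair libraries: same-numbered libraries deviated together with a mean r of 0.02 over 99 pairs, from -0.62 to 0.65. With a replicate block the count was 627. Depth and 21 against 22 libraries limit small differences, and the intervals given beside genes that did not pass show the uncertainty of each estimate.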
